A study of Mus musculus with 8 samples.

Results

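The baseline transcriptome of BMEL cells was described from the 3 arrays labelled NoRX, taken alone out of the 8 arrays of the series. BMEL cells (Bipotential Murine Embryonic Liver) are an established line of mouse liver progenitor cells. The series compared media on this line, with 3 arrays labelled NoRX, 3 labelled CM and 2 labelled DIFF, and its title names media conditioned by human amniotic epithelial cells. Only the NoRX arrays enter the values given here, and no medium is compared with another. The labels do not say what NoRX stands for or what the medium held, so "untreated" is a reading of the label and not a stated fact. Nothing in the labels says that the 3 replicates came from separate cultures, so their spread may be technical. All 3 come from 1 line, and bulk RNA cannot tell fewer cells of a type from less RNA per cell.

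Liver progenitors of the embryo, or hepatoblasts, give rise to hepatocytes, which secrete plasma proteins and run the urea cycle, bile acid synthesis and drug metabolism, and to cholangiocytes, the cells that line bile ducts. Their fate is set by a network of liver-enriched transcription factors around HNF4α, FOXA, GATA and C/EBP proteins on the hepatocyte side, and SOX9 and Notch signalling on the biliary side. Bipotential lines such as BMEL are grown as undifferentiated epithelial cells that can be moved towards either fate.

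RNA was labelled with Cy3 and hybridised to an Agilent mouse array of 55681 different probes other than controls, of which 27235 named 20660 genes through RefSeq. A gene was called on when at least 1 of its probes was marked well above background on all 3 arrays, off when none of its probes was marked so on any array, and between otherwise. By this rule 12872 genes (62.3%) were on, 6647 (32.2%) were off and 1141 (5.52%) lay between. Each count of genes on given below is to be read against this 62.3%. Signals are given as log2 of the processed intensity minus the array's own 75th percentile, called the relative log2 signal, so that 0 is the 75th percentile of an array's probes. A gene is represented by its brightest probe. Probes are not calibrated against each other, so a rank or percentile is one of probe signal and not of RNA amount, and "off" is an upper bound and not the absence of RNA.

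The median relative log2 signal was 1.60 over genes on, -6.81 over genes off and -1.51 over all named genes. On the 3 arrays, 51.3%, 51.5% and 51.2% of 59305 spots were well above background, no spot was saturated, and the lowest signal marked well above background lay at -4.76, -4.85 and -4.67. The states met at that limit, as Ttll13 was the dimmest gene on (-4.67, -4.77 and -4.41) and Nacad the brightest gene off (-4.67, -4.62 and -4.51). Of the genes on, 8670 had 1 probe and could not be checked by another. Among the 4202 genes on with several probes, 773 (18.4%) had 1 probe on and another off, and such genes are marked below where they are named.

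The off state depends on the scanner flag behind it. With the laxer flag for a signal positive and significantly over background, 3509 genes were off and 14659 on. Of genes called off in what follows, Acta2, Apoa1, Asgr1, Ccne2, Cdx1, Ciita, Cpt1c, Cyp3a11, Fbp1, Fga, Fgfr4, G6pc, Gata1, Grb10, Hlf, Hnf4g, Hoxb5, Hoxc5, Hoxc10, Hp, Igf2, Itih1, Klf1, Ngfr, Nqo1, Ptprc, Pygl, Sds and Tek passed as on by the laxer flag. With a stricter limit (mean of negative control spots plus 3 SD), Cldn4, Col6a3, Dcn, Nkx6-1, Slc27a5 and Tcf7 turned from on to off. Alb, Cdh5, Cftr, Cyp2e1, Erbb3, Esrrb, Hoxa2, Hoxa4, Hoxb6 and Prox1 turned from on to between.

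**Figure D1:**
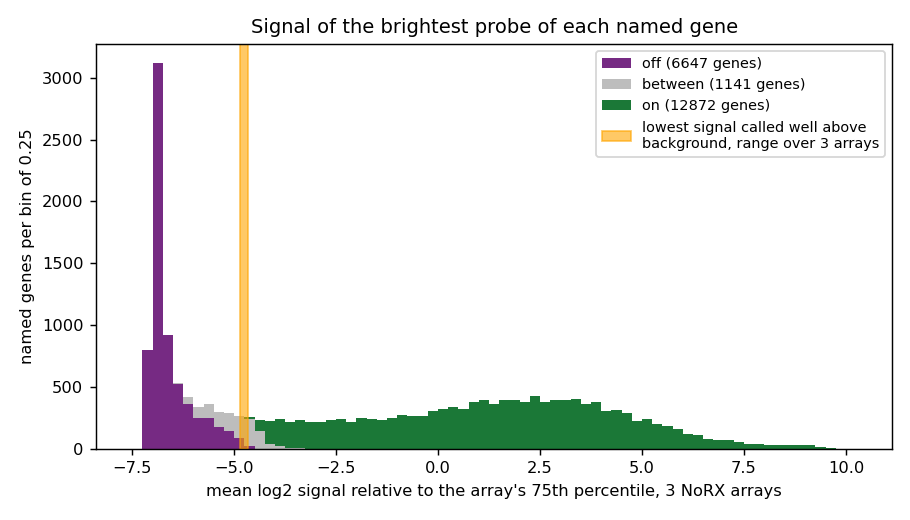
Number of named genes in bins of 0.25 by mean relative log2 signal over the 3 NoRX arrays, stacked by state. The 6647 genes off form a peak near -7, below the orange band that marks the lowest signal called well above background (-4.85 to -4.67), and the 12872 genes on spread from that band to 9.79.

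The 6 genes that mark the line were all on. Krt19, a keratin of bile duct cells and hepatoblasts, had relative log2 signals of 9.15, 9.23 and 9.27 on replicates 1 to 3. Vim, the intermediate filament of mesenchymal and cultured cells, stood at 8.53, 8.58 and 8.63, and Hnf4a, the nuclear receptor that commands the hepatocyte programme, at 6.81, 6.74 and 6.62. These 3 probes lay in the brightest 0.14%, 0.513% and 2.23% of named genes. Cdh1, which encodes E-cadherin, gave 5.54, 5.54 and 5.48. Sox9, the biliary and progenitor transcription factor, gave 1.53, 1.58 and 1.56. Afp, the fetal serum protein of hepatoblasts, gave 1.46, 1.61 and 1.45. Cdh1 lay in the brightest 5.21%, while Sox9 and Afp lay at 31.4% and 31.9%, near the middle of the genes on. Epithelial (Cdh1, Krt19) and mesenchymal (Vim) markers were thus read on the same arrays, as were a biliary and a hepatocytic regulator. Each of the 6 rests on 1 probe.

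The brightest probes belonged to glycolysis, the cytoskeleton, translation and a stomach peptide. Aldoa (aldolase A) led with 9.73, 9.78 and 9.87. Gapdh, whose 7 probes were all on, and Ldha (lactate dehydrogenase A) were also among the 30 brightest genes. Genes with only clone, Riken or predicted names were left out of these 30. The keratin Krt18 stood at 9.60, 9.69 and 9.75, the calcium-binding protein S100a6 at 9.56, 9.58 and 9.69 and the membrane-binding annexin Anxa2 at 9.40, 9.42 and 9.47. Cytosolic ribosomal proteins made up 8 of the 30, next to Fau, Rack1 and Tpt1 of the translation machinery, Actb and Actg1 (the cytoplasmic actins), Ppia, Gsto1 and Ftl1, the ferritin light chain. Tff1, a trefoil peptide secreted by the stomach, gave 9.52, 9.56 and 9.54, and a second probe for Tff1 averaged 9.36.

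Some of the 30 rest on a probe that the gene's other probes contradict. The brightest probe of Slc10a1, the bile acid uptake transporter of hepatocytes, read 9.24, 9.21 and 9.26, while its other probe read -6.91, -7.03 and -6.86 and was below background on all 3 arrays. Kctd14, Glrx2, Elk1 and Zfp628 likewise had a dimmest probe 16.19, 13.98, 13.12 and 7.59 log2 units under the brightest. Which of the probes reads these genes' RNA was not tested, so neither a high level nor an off state of Slc10a1 is claimed. Of the 14 genes among the 30 with several probes, 6 had such a gap of over 4, against 1363 of the 4202 genes on with several probes (32.4%).

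Promoters are shown for 2 genes with bright probes, Krt18 and the stomach gene Gkn2, which differ in CpG content. RefSeq promoters (GRCm38.p6) are given as the 250 bases before the start site, 5′ to 3′. In the keratin gene Krt18 (chr15:102027966-102028215, plus strand) the 12 CpG dinucleotides are in capitals. In Gkn2 (chr6:87373115-87373364, plus strand), which encodes a gastrokine of the stomach, the TATA box letters TATAAA, found 29 bases before the start, are in capitals.
Krt18: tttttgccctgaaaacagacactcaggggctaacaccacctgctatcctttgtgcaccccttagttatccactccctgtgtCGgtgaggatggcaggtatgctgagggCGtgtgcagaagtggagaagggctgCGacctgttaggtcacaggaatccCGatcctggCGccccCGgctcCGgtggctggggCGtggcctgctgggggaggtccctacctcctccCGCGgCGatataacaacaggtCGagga
Gkn2: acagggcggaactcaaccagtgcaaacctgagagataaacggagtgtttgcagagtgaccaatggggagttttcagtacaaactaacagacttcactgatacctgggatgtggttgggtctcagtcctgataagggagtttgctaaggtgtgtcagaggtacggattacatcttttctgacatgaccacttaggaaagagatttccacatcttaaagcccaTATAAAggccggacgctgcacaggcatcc
The ratio of observed to expected CpG over 300 bases at the start was 0.60 in Krt18 and 0.36 in Gkn2.

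Genes of bile duct cells and ductal progenitors were on almost throughout. Of this list, 22 of 23 measured genes (95.7%) were on, against 62.3% of all named genes, with a median relative log2 signal of 1.56 against -1.51. After Krt19, the brightest were Bicc1, an RNA-binding protein of bile duct and kidney tubules, at 5.98, 5.90 and 5.92, the annexin Anxa3 at 5.83, 5.85 and 5.77 and Cd24a, a surface marker of progenitors, at 5.33, 5.42 and 5.47. The water channel Aqp1 followed at 5.20, 4.97 and 4.96. Other defining markers were on at low signal: Spp1 (osteopontin) at -2.19, -2.07 and -2.20, Epcam at -0.67, -0.42 and -0.44 and Cftr, the chloride channel of secreting ducts, at -3.61, -4.17 and -3.65. Cldn4, at -4.43, -3.98 and -4.13, lay close to the background limit. Prom1 and the secretin receptor gene Sctr were on by 1 probe of 2 and 1 of 4.

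Adhesion and keratin genes of simple epithelia were also mostly on, at 17 of 21 measured genes (81%) with a median of 3.23. Krt8, the partner of Krt18, stood at 8.69, 8.80 and 8.71, the junctional protein F11r at 6.62, 6.64 and 6.64 and desmoplakin (Dsp) at 5.16, 5.09 and 5.06. The splicing regulators Esrp1 and Esrp2 and the epithelial transcription factors Ovol2 and Grhl2 were on. Claudins were the exception, as 7 of 23 were on in the family as a whole and Cldn1, Cldn3 and Cldn6 were off. Cldn12 (3.29, 3.30 and 3.32) and Cldn2 (2.55, 2.57 and 2.55) were the claudins with the brightest probes. Among 53 keratins, 28 were on, led by Krt18, Krt19, Krt20 (9.06, 9.14 and 9.18) and Krt8. Near relatives within such families can share probe signal, which these arrays cannot resolve.

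Of the mesenchymal list 14 of 22 measured genes (63.6%) were on, close to the 62.3% of all genes, with a median of -1.82. Besides Vim, the matrix proteins Sparc (7.64, 7.68 and 7.74) and fibronectin Fn1 (6.63, 6.60 and 6.68) were bright, and N-cadherin (Cdh2, 2.72, 2.69 and 2.74) was on beside E-cadherin. The repressors of E-cadherin Snai2 (1.41, 1.58 and 1.44), Zeb1 (0.66, 0.66 and 0.83) and Snai1 (-3.29, -3.28 and -3.30) were on. Twist1, smooth muscle actin Acta2, Cnn1, Thy1, Postn and Mmp2 were off, Acta2 at -4.76, -4.83 and -4.64 lying at the limit.

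Fetal liver genes were on about as often as all genes, with known hepatoblast markers in either state. Of this list 11 of 17 measured genes (64.7%) were on, against 62.3%, with a median of 1.16. The chromatin proteins Hmga1 (7.38, 7.33 and 7.49) and Hmga2 (3.57, 3.53 and 3.72) and the fetal mRNA-binding proteins Igf2bp1 (2.63, 2.53 and 2.55), Igf2bp2 (2.57, 2.58 and 2.54) and Igf2bp3 (1.18, 1.11 and 1.20) were on, as was Afp. Off were Dlk1, the surface protein by which hepatoblasts are often isolated, at -5.69, -5.59 and -6.78, the fetal growth factor Igf2 at -6.37, -6.39 and -6.39 and the heparan sulphate proteoglycan Gpc3 at -6.92, -7.02 and -6.85. Lin28b, Tbx3 and Lgr5 were off as well. A classical hepatoblast marker (Afp) and the hepatoblast markers Dlk1 and Gpc3 were therefore in different states on the same arrays.

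Plasma proteins of hepatocytes were on in part. The list had 15 of 27 measured genes (55.6%) on, under the 62.3% of all genes, with a median of -2.85. Iron carrier transferrin (Trf) gave 5.61, 5.62 and 5.58, retinol-binding protein Rbp4 5.38, 5.36 and 5.52 and apolipoprotein Apob 4.29, 3.99 and 4.19. Transthyretin (Ttr) gave 1.63, 1.40 and 1.48. Alb, the most abundant product of mature hepatocytes, was on at -2.81, -3.19 and -3.80 and varied between the arrays (SD 0.50) by more than the median SD of 0.0591 over genes on. The 10 genes off held all 3 fibrinogen chains (Fga, Fgb, Fgg), Apoa1, Ahsg, haptoglobin (Hp), plasminogen (Plg), Vtn, Itih1 and Itih4. Fgb, for instance, read -6.97, -7.08 and -6.91.

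Some genes known from the lining of the stomach and intestine were among the brightest probes of the array, though the list as a whole was on little more often than all genes. The list had 9 of 13 measured genes (69.2%) on, against 62.3%, with a median of 0.02. Besides Tff1, Gkn2 read 8.95, 9.01 and 8.99, and Lgals4, a galectin of gut epithelium with 3 probes on of 3, read 8.58, 8.64 and 8.58. Villin (Vil1), which shapes microvilli in gut, kidney and bile ducts, read 5.96, 5.94 and 5.91. Fabp2, the intestinal fatty acid binding protein, read 3.93, 4.06 and 3.87. Cdx2, the intestinal homeobox factor, read 0.85, 1.24 and 1.07, while its relative Cdx1 was off at -5.23, -5.29 and -5.86. Sis and Lct, the brush border enzymes sucrase-isomaltase and lactase, lay between. The other trefoil genes Tff2 (3.56, 3.39 and 3.32) and Tff3 (2.25, 2.02 and 1.74) were on too.

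Genes of squamous epithelium were on in 10 of 13 measured genes (76.9%), with Krt79 at 5.90, 6.08 and 5.78, involucrin (Ivl) at 3.24, 3.51 and 3.17 and the basal keratin Krt14 at 1.54, 1.60 and 1.64, whereas Krt1 and Krt6a were off. Trp63, the p53 relative of basal cells, was on by 1 of 2 probes only, 1 at 3.74, 3.66 and 3.79 and the other at -7.00, -7.10 and -6.93. Among pancreatic genes 6 of 13 measured genes (46.2%) were on, under the 62.3% of all genes. The regulators Pdx1 and Ptf1a and the hormones Gcg and Sst were off. The insulin gene Ins2, the regulator Nkx6-1 and the enzymes Ctrb1 and Cela1 were on. The trypsins Prss1 and Prss2, which were on too, have close relatives.

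**Figure D2:**
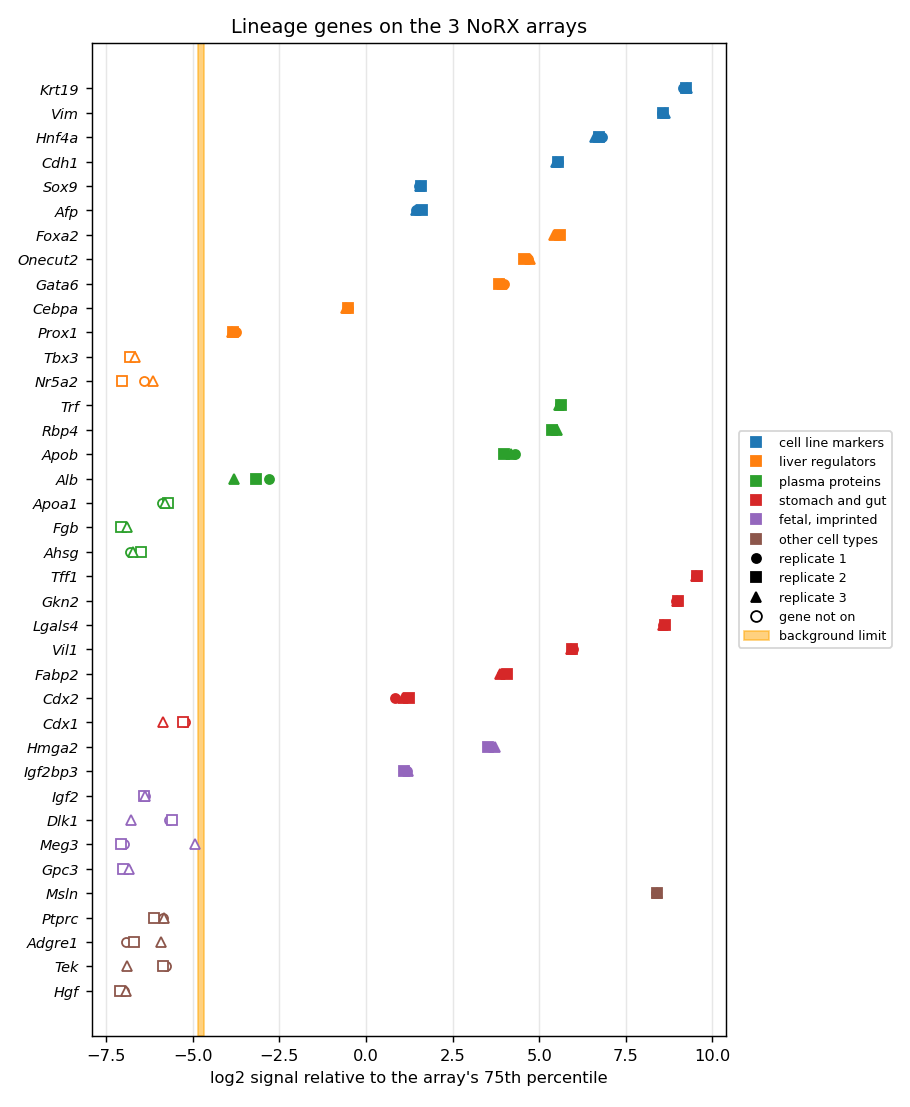
Relative log2 signal of lineage genes, 1 marker shape for each of the 3 NoRX arrays, coloured by group. Filled symbols are genes on and open symbols genes that were not, the orange band is the lowest signal called well above background, and the 3 arrays lie closely together for bright genes such as Tff1 and Krt19 and apart for Alb.

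Markers of the other cell types of the liver were on less often than all named genes, and some lay above background in each list. Of stellate cell and fibroblast genes 4 of 13 measured genes (30.8%) were on, and Lrat, Reln, Hgf, Gfap, Pdgfrb, Ngfr, Lum and Hand2 were off. Desmin (Des) at -1.69, -1.59 and -1.74 and Pdgfra at -2.84, -2.54 and -2.82 were on, as were Dcn and Col6a3 near the limit. Endothelial genes were on in 5 of 12 measured genes (41.7%), with Tek, Tie1, Erg and Emcn off and Vwf and Clec4g on. Kdr, the VEGF receptor, read 3.55, 3.58 and 3.83 on 1 probe and was off on its other, and Pecam1 (-3.88, -3.45 and -3.61) and Cdh5 (-3.80, -3.25 and -3.83) were on at low signal.

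Leukocyte and macrophage genes were on in 5 of 13 measured genes (38.5%). Ptprc (CD45, -5.86, -6.10 and -5.82), Adgre1, Clec4f, Lyz2, Tyrobp and Ms4a1 were off, whereas Fcer1g and the macrophage receptor gene Csf1r were on. Of the others on, Itgam and Nkg7 had disagreeing probes, and Cd3e (0.36, 0.72 and 0.77) rests on 1 probe. In the erythroid and blood progenitor list 4 of 13 measured genes (30.8%) were on. These were the α-globin gene Hba-a1, Epor, Kit and Cd34, while Gata1, Klf1, Tal1 and Alas2 were off. Neuronal and glial genes (4 of 14) and skeletal and cardiac muscle genes (4 of 12) were also on less often than the 62.3% of all genes, though cardiac troponin Tnnt2 (5.48, 5.59 and 5.63) and Mbp (4.35, 4.37 and 4.33) were bright. Among 5 mesothelial genes only Msln (mesothelin) was on, at 8.37, 8.39 and 8.39, while Wt1 and Upk3b lay between and Lrrn4 and Gpm6a were off. These short lists moved with the flag: by the laxer one 9 endothelial, 7 erythroid, 7 neuronal, 7 muscle and 3 mesothelial genes were on, by the stricter limit 2 stellate cell genes, and with every probe required 2 leukocyte and 2 neuronal genes. The part that other cells may play in these signals was not tested.

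**Figure D3:**
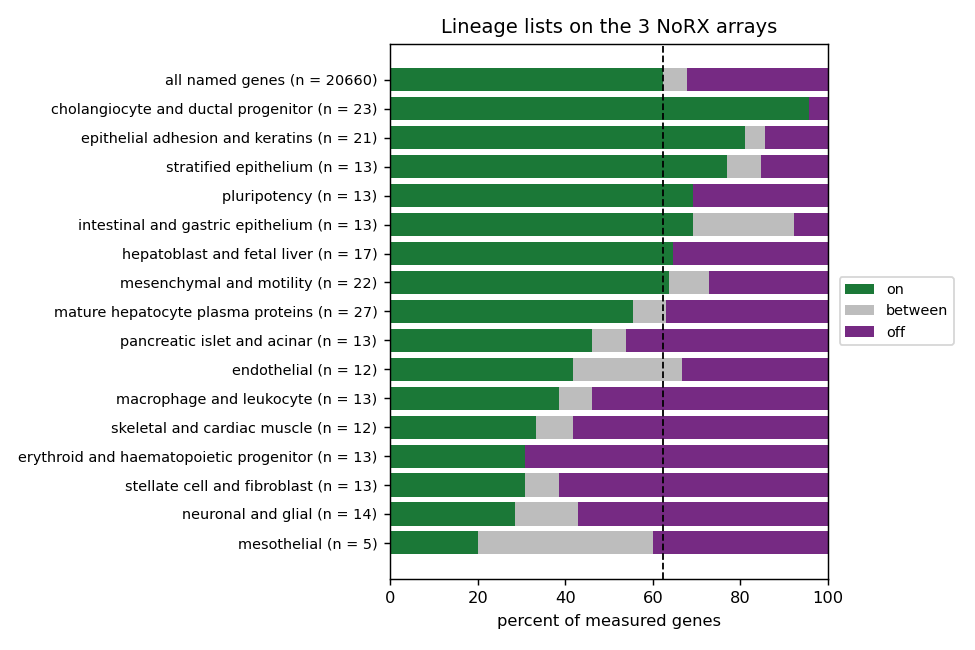
Percent of measured genes that were on, between or off on the 3 NoRX arrays, for 16 lineage lists and all named genes. The dashed line marks the 62.3% of all named genes that were on, and bars run from 95.7% on for the cholangiocyte list to 1 of 5 genes for the mesothelial list.

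Transcription factors of the liver were on in 23 of 28 measured genes (82.1%), with a median of 0.27. The pioneer factor Foxa2 read 5.54, 5.59 and 5.42 and Onecut2, which acts with HNF6 in early liver, 4.67, 4.55 and 4.73. Gata6 (3.92 ± 0.07, mean ± SD, n = 3) and Gata4 (1.27, 1.27 and 1.27), needed for liver bud growth, were on, as were Cebpb (4.20, 4.20 and 4.20) and Cebpa (-0.53, -0.53 and -0.56), the latter a regulator of hepatocyte maturation. Foxa1, Foxa3 and Hhex were on near or under the 75th percentile. The hepatoblast factor Prox1 (-3.77, -3.85 and -3.86) and Onecut1 (-3.49, -3.37 and -3.42) were on close to the limit. Off were Tbx3, Nr5a2, Nr0b2 (SHP), Hlf and Lhx2, a factor of stellate cells. Nr5a2 read -6.41, -7.04 and -6.15.

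Of the nuclear receptors, 36 of 48 measured genes (75%) were on. Pparg, the fat cell regulator, read 6.17, 6.22 and 6.19, the oxysterol receptor Nr1h2 5.84, 5.86 and 5.92 and Esrra, a regulator of mitochondrial genes, 5.86, 5.90 and 5.83. The glucocorticoid receptor Nr3c1 read 3.45, 3.51 and 3.56. The bile acid receptor Nr1h4 (1.27, 1.27 and 1.28), the xenobiotic receptor Nr1i2 (1.49, 1.44 and 1.21) and Ppara (-0.27, -0.24 and -0.19) were on, and Nr1i3 was on by 1 probe of 2. The 12 off included the steroid receptors Esr1 and Pgr, the retinoic acid receptor Rarb and Hnf4g. Retinoid receptors Rara and Rarg were on, so that 2 of the 3 retinoic acid receptor genes passed.

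Growth-linked factors were mostly on. AP-1 and immediate early genes were on in 15 of 16, all but Egr3, with Jund (6.37, 6.45 and 6.42) and Jun (5.50, 5.51 and 5.43) the brightest. The Hippo pathway effector Yap1 read 4.71, 4.66 and 4.53, Wwtr1 (TAZ) was on, and so were all 4 TEAD genes, their DNA-binding partners. The TEAD target Ccn2 read 6.59, 6.63 and 6.67. Of the YAP and TEAD list 15 of 18 were on, the 3 off being Vgll1, Vgll2 and Vgll3. Of the MYC and MAX list 10 of 13 measured genes (76.9%) were on. Myc read 2.28, 2.38 and 2.34 and Mycn -1.95, -2.19 and -2.01, while Mycl was off. Among pluripotency genes 9 of 13 measured genes (69.2%) were on, against 62.3% of all genes. The core factors Pou5f1 (-6.84, -5.97 and -6.16) and Sox2 (-7.00, -7.12 and -6.94) were off with Zfp42 and Dppa3. On were Klf4 (6.12, 6.09 and 6.03), a factor also common in epithelia, Nanog, Dppa5a, Lin28a, Utf1, Tfcp2l1 and Esrrb. Sall4 and Tdgf1 were on with disagreeing probes. Whether copies of Nanog and Dppa5a elsewhere in the genome add to their signal was not tested.

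The Hox genes, which give body regions their position and are laid out in 4 clusters, differed in state by cluster. In the Hoxa cluster Hoxa2 to Hoxa7, Hoxa9 and Hoxa10 were on, an unbroken run in chromosomal order on chromosome 6, and Hoxa11 and Hoxa13 were off. Hoxa7 read 3.80, 3.85 and 3.78 and Hoxa10 read -1.04, -1.07 and -0.96. The first gene past the run, Hoxa11, read -6.80, -6.89 and -6.56, under background on every array. In Hoxb 1 of 10 genes was on (Hoxb6, -3.99, -3.92 and -3.97), 3 lay between and 6 were off. All 9 genes of Hoxc and all 9 of Hoxd were off. These states moved with the flag: by the laxer one Hoxb3, Hoxb5, Hoxb9, Hoxb13, Hoxc5 and Hoxc10 were on as well, and by the stricter limit Hoxa2, Hoxa4 and Hoxb6 lay between.

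The promoters at the edge of the run are shown with their CpG dinucleotides in capitals, 250 bases before the start. Hoxa10 has 2 starts in RefSeq, of which the one nearer to Hoxa9 is given (chr6:52234940-52235189, minus strand), and Hoxa11 has 1 (chr6:52245811-52246060, minus strand).
Hoxa10: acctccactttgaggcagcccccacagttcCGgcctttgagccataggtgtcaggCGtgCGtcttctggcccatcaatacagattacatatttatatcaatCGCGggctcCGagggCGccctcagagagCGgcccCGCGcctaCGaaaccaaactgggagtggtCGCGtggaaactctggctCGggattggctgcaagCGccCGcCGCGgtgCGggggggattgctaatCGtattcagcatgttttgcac
Hoxa11: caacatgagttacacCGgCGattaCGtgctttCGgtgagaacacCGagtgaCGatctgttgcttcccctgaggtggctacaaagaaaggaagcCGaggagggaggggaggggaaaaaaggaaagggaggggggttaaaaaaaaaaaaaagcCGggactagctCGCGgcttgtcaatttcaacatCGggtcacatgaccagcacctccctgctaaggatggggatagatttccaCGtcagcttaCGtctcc
They hold 20 and 13 CpG dinucleotides, and the ratio of observed to expected CpG over 300 bases was 0.85 and 0.79. The other start of Hoxa10 has 7 and a ratio of 0.60, and the arrays do not tell which start was used.

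**Figure D4:**
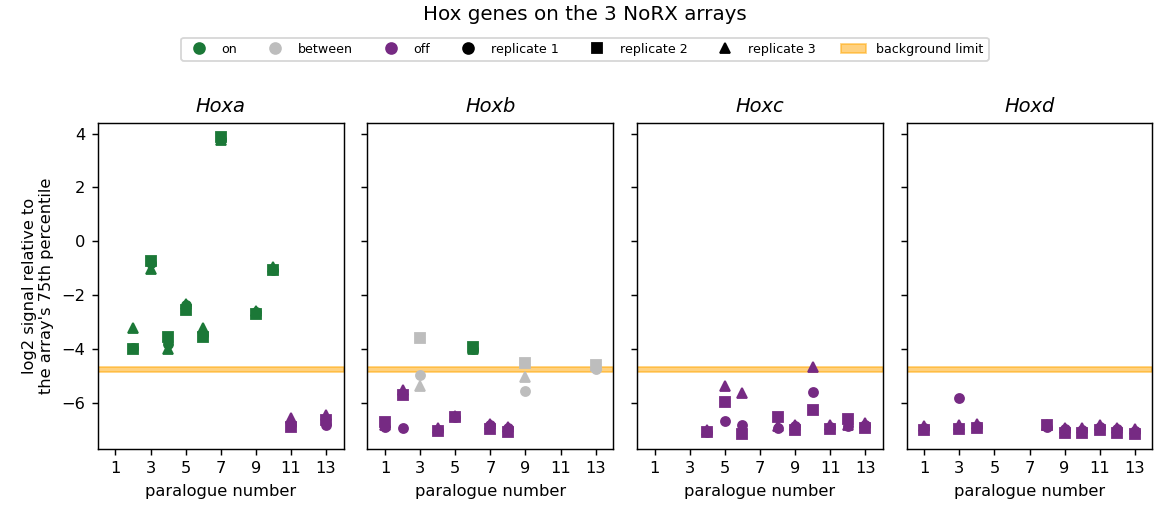
Relative log2 signal of Hox genes by paralogue number, 1 panel per cluster and 1 marker shape per NoRX array, coloured by state. Hoxa2 to Hoxa10 lie above the orange background limit, and the Hoxc and Hoxd panels hold 18 genes that were all off.

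Growth factor receptors and ligands were on about as often as all genes (62.3%), with 10 of 15 measured genes (66.7%) in the ERBB list and 11 of 17 measured genes (64.7%) in the MET and FGF list. In the ERBB family, Egfr (2.50, 2.42 and 2.43) and Erbb2 (2.04, 2.07 and 2.03) were on, Erbb3 was on near the limit (-4.07, -4.00 and -4.36) and Erbb4 was off (-6.98, -7.09 and -6.92). Their ligands Areg (5.44, 5.11 and 5.11), Hbegf (3.80, 3.74 and 3.68), Btc, Ereg and Tgfa were on as well. Met, the receptor of hepatocyte growth factor, was on at -0.11, -0.58 and -0.38, and its ligand Hgf, made by stellate cells, was off at -6.98, -7.09 and -6.92. The related receptor Mst1r and its ligand Mst1 were both on. Of FGF receptors, Fgfr3 was on, Fgfr1 and Fgfr2 were on by 1 probe of several, and Fgfr4, the receptor of mature hepatocytes, was off (-4.93, -4.82 and -5.42).

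The insulin receptor Insr (-0.57, -0.66 and -0.62), Igf1r (2.25, 2.14 and 2.26) and the docking proteins Irs1 and Irs2 were on, the ligand Igf2 was off and Igf1 lay between. Of the binding proteins, Igfbp3 (4.30, 4.48 and 4.36) and Igfbp4 (4.09, 4.12 and 4.09) were on, and Igfbp1, a product of hepatocytes, was off (-6.93, -7.06 and -6.89). Among 38 other receptor tyrosine kinases 24 were on (63.2%), near the 62.3% of all genes. They were led by the ephrin receptor Ephb3 (6.60, 6.75 and 6.69), with Epha2 (4.35, 4.50 and 4.45) and Axl (3.54, 3.47 and 3.67).

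Notch pathway genes were on in 13 of 17 measured genes (76.5%). The ligand Jag1, mutated in bile duct paucity, read 4.29, 4.37 and 4.33, the nuclear mediator Rbpj 1.79, 1.68 and 1.67 and the target Hes1 0.60, 0.60 and 0.49. Notch1 and Notch2 were on by 1 probe of 2 each, and Dll1, Hey2 and Heyl were off. Wnt receptors and regulators were on in 14 of 23 measured genes (60.9%), near the 62.3% of all genes. β-Catenin (Ctnnb1) read 5.52, 5.56 and 5.56, and the co-receptors Lrp5 and Lrp6, Fzd4 and the factor Tcf7l2 were on. Of the genes often used as readouts of the pathway, Axin2 (-6.82, -6.94 and -6.77), Lgr5 (-6.93, -7.05 and -6.89) and Lef1 (-6.94, -7.06 and -6.89) were off. Rnf43 and Znrf3, which also serve as readouts, were on, and Tcf7 was on with disagreeing probes. The activity of the pathway was not tested. Of 19 Wnt ligands 8 were on (42.1%), with Wnt7a the brightest (1.75, 1.93 and 1.88) among those without disagreeing probes.

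TGF-β and BMP genes were on in 21 of 27 measured genes (77.8%), with the receptors Tgfbr1 (3.54, 3.54 and 3.58), Tgfbr2 (3.91, 3.97 and 3.98) and Bmpr1a (2.09, 2.14 and 2.12) and the ligands Tgfb1 and Inhba. In Hedgehog signalling, Smo (4.52, 4.47 and 4.53) was on, Shh, Gli2 and Hhip were off and Gli1, Gli3 and Ihh lay between, for 4 of 11 on. Cytokine receptors were on in 28 of 37 measured genes (75.7%). Tnfrsf12a, the TWEAK receptor that drives progenitor growth in injured liver, read 6.96 ± 0.04 (SD, n = 3), Ltbr 5.66, 5.67 and 5.57 and Tnfrsf1a 5.53, 5.55 and 5.42. The interleukin-6 receptor pair Il6ra (1.05, 0.85 and 0.86) and Il6st (0.20, 0.08 and 0.27) and Osmr (0.69, 0.59 and 0.68) were on, and Lifr was off (-6.98, -7.08 and -6.92). Csf3r, the receptor of a growth factor of neutrophils, read 6.29, 6.17 and 6.24.

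Integrins were on in 16 of 24 measured genes (66.7%), near the 62.3% of all genes. Among them were both chains of the laminin receptor of hemidesmosomes, Itga6 (7.20, 7.19 and 7.22) and Itgb4 (5.21, 5.13 and 5.19). Of laminin chains, Lama3 at 3.53, 3.44 and 3.28 and Lamb3 at 7.17, 7.17 and 7.04 were on. Lama5 read 6.27, 5.97 and 5.95, while the α chains Lama1, Lama2 and Lama4 were off. Of hepatocyte receptors, Gcgr (0.52, 0.59 and 0.44), the glucagon receptor, and Pigr (4.85, 4.62 and 4.75), which carries IgA into bile, were on. Asgr1, a chain of the asialoglycoprotein receptor, was off (-5.27, -6.11 and -5.18), and Asgr2 was on (-2.64, -2.61 and -2.60).

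In metabolism, pathways shared by growing cells were on as nearly whole sets, while several enzymes known from hepatocytes were off. Glycolytic isozymes were on in 27 of 30 measured genes (90%), with a median of 2.45. Hexokinases Hk1 (6.87, 6.86 and 6.87) and Hk2 (5.59, 5.55 and 5.44) and the pyruvate kinase gene Pkm (8.05, 8.12 and 8.19) were on. The hepatocyte form of pyruvate kinase, Pklr (-1.98, -2.07 and -2.10), was on at low signal. Of the lactate dehydrogenases, Ldha was on and Ldhb was off (-6.85, -5.86 and -6.25). The glucose transporter Slc2a1 read 7.41, 7.30 and 7.27, Slc2a2, that of hepatocytes, -3.02, -3.22 and -2.96, and Slc2a3 was off.

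Gluconeogenesis and glycogen genes were on in 10 of 17 measured genes (58.8%), near the 62.3% of all genes. The liver forms Pck1 (-7.05, -7.15 and -5.51), G6pc (-4.78, -5.06 and -4.68) and Fbp1 (-6.16, -6.59 and -6.23) were off, whereas Pck2, G6pc3 and Fbp2 were on. The same held in glycogen metabolism, where the liver phosphorylase Pygl was off and the brain and muscle forms Pygb and Pygm were on, and where Gys1 was on and the liver form Gys2 lay between. Urea cycle and ammonia genes were on in 12 of 17 measured genes (70.6%). In the cycle itself, Cps1 (-6.83, -6.95 and -6.79), Otc (-6.84, -6.96 and -6.78) and Arg1 (-6.79, -6.91 and -6.74) were off, as was Nags, which makes the activator of Cps1. Ass1 (5.59, 5.65 and 5.66) and Asl (2.28, 2.29 and 2.38), which also serve arginine synthesis outside the liver, were on.

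Of the genes for breakdown of tyrosine, tryptophan and methionine 12 of 21 measured genes (57.1%) were on. Hpd, Hgd and Tdo2 (-7.06, -7.17 and -6.61) were off with Kynu, Bhmt and Sds, while Tat, which starts tyrosine breakdown, Haao, Fah (3.44, 3.60 and 3.54) and Gstz1 were on. Of the methionine adenosyltransferases, Mat2a of growing cells was on (5.90, 6.02 and 5.98) and Mat1a of hepatocytes lay between. Bile acid synthesis and transport had 8 of 21 measured genes (38.1%) on, the lowest share among the metabolic lists. Cyp7a1, the rate-limiting enzyme of bile acid synthesis (-6.90, -6.99 and -6.83), Cyp27a1 (-6.95, -7.06 and -6.88), Baat, the export pump Abcb11 (-6.32, -7.10 and -5.47) and the uptake transporters Slco1a1 and Slco1b2 were off. Abcc3 (6.56, 6.47 and 6.49), the basolateral exporter, and Abcc4 (1.64, 1.53 and 1.64) were on. Of 8 genes on in this list, Slc10a1 and Slc27a5 had disagreeing probes.

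Drug-metabolising P450 genes were on in 14 of 22 measured genes (63.6%), near the 62.3% of all genes. Cyp2s1, an extrahepatic form found in epithelia, read 8.79, 8.75 and 8.77, the retinoic acid hydroxylase Cyp26b1 4.83, 4.68 and 4.66 and Cyp3a13 4.49, 4.45 and 4.45. Forms of hepatocytes were in either state. Cyp1a2 (-7.00, -7.11 and -6.95) and Cyp3a11 (-5.40, -6.55 and -5.31) were off, and Cyp2e1 was on near the limit (-4.17, -3.92 and -4.16). Cyp2b10, Cyp2c29 and Cyp2d22 were on under every setting.

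All 22 genes of cholesterol synthesis were on, with a median of 3.24, among them Msmo1 (6.42, 6.30 and 6.36), Fdps (6.18, 6.12 and 6.26) and Sqle (5.63, 5.55 and 5.54). Fatty acid synthesis and storage was on in 20 of 23. Of the stearoyl-CoA desaturases, Scd2 was on (8.72, 8.77 and 8.84) and Scd1, the main form of adult liver, was off (-6.57, -7.17 and -6.99). The lipid droplet protein Plin2 read 6.88, 6.98 and 6.92. Fatty acid oxidation was on in 22 of 24, all but Ehhadh and Cpt1c, with Cpt1a, which admits fatty acids to mitochondria, at 4.95, 4.94 and 4.97. Serine and one-carbon genes were on in 17 of 18, led by asparagine synthetase Asns (6.84, 6.81 and 6.81) with Psat1 (5.16, 5.20 and 5.26) and Phgdh (4.70, 4.67 and 4.88) of serine synthesis.

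Glutathione and NRF2 genes were on in 26 of 28, with Gpx4 (7.77, 7.79 and 7.85) and Gsta2 (6.23, 6.19 and 6.14), and Nqo1, a usual target of NRF2, was off (-5.41, -5.39 and -4.87). Aldh1a1, which makes retinoic acid and marks progenitors in several tissues, read 7.25, 7.19 and 7.25. Iron handling genes were on in 12 of 16 measured genes (75%). The ferritin chains Ftl1 (9.24, 9.28 and 9.37) and Fth1 (8.61, 8.62 and 8.70) were bright, and the hormone hepcidin (Hamp, -5.87, -7.09 and -6.92) was off, as were its regulators Hjv and Bmp6, while the regulators Hfe, Tfr2 and Tmprss6 were on.

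Cell cycle genes and their inhibitors were on in 26 of 28, the 2 off being the cyclins Ccna1 and Ccne2. Cyclin D1 (Ccnd1) read 7.36, 7.39 and 7.37, Cdk4 6.18, 6.18 and 6.19 and Mki67, the Ki-67 gene of dividing cells, 0.76, 0.43 and 0.56. The inhibitors were on beside them: Cdkn1a (p21) at 6.10, 6.13 and 6.21, and Cdkn2a at 1.49, 1.68 and 1.72 on 1 probe and -2.95, -2.59 and -2.70 on its other. All 18 genes of the p53 list were on, including Trp53 (-0.23, -0.28 and -0.21) and its targets Perp (7.20, 7.17 and 7.28), Phlda3 (7.02, 7.03 and 7.05) and Mdm2 (5.45, 5.37 and 5.39). Trp63 and Trp73 in that list had disagreeing probes. Tert, the catalytic subunit of telomerase, lay between (-4.66, -4.28 and -4.32).

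Imprinted genes, expressed from 1 parental copy, were on in 16 of 33 measured genes (48.5%), under the 62.3% of all genes, with a median of -4.59, and in 25 by the laxer flag. At the Dlk1 and Meg3 locus on chromosome 12, Dlk1, Meg3 (-6.97, -7.07 and -4.93) and Rtl1 (-6.87, -6.70 and -6.48) were off, and Dio3 was on (-3.17, -2.28 and -2.37). Mest (-6.96, -6.85 and -6.89), Grb10 (-5.98, -5.81 and -5.03) and Igf2, which are abundant in fetal tissue, were off. Slc22a18 (5.68, 5.69 and 5.71), Impact (2.18, 2.20 and 2.17) and Igf2r (-3.69, -3.68 and -3.47) were on. Gnas was on by 1 probe of 3.

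Of the sex chromosome genes, both probes of Xist, the RNA that silences an X chromosome in female cells, were off, at means of -6.99 and -6.87. The Y-linked genes Kdm5d, Uty, Ddx3y, Eif2s3y, Usp9y, Zfy1 and Zfy2 were off as well, with means from -7.02 to -6.73, and their X-linked partners Kdm5c, Kdm6a, Ddx3x, Eif2s3x and Usp9x were all on, from -1.53 to 4.41. Sry, also Y-linked, lay between (-1.68, -7.04 and -6.82). On the X chromosome 46.7% of 815 genes were on, against 63.0% of 19823 autosomal genes and 56.1% to 69.6% on single autosomes. MHC and antigen presentation genes were on in 15 of 21 measured genes (71.4%). Class I antigen presentation genes such as B2m (5.92 ± 0.07, SD, n = 3) and H2-K1 (4.62, 4.74 and 4.64) were on. The class II genes H2-Aa, H2-Ab1 and H2-Eb1 and their activator Ciita were off. Against this split, Cd74, the invariant chain of class II, was on and the class I activator Nlrc5 was off.

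Shares on by gene family ran from nearly all members to few. Cytosolic ribosomal proteins were on in 81 of 85, complex I subunits in 45 of 46, mitochondrial ribosomal proteins in 77 of 78 and aminoacyl tRNA synthetases in 33 of 33. Zinc finger genes named Zfp were on in 318 of 363 (87.6%). At the other end, 50 of 1071 olfactory receptor genes (4.67%) and 11 of 252 vomeronasal receptor genes (4.37%) were on, families that serve mainly in sensory neurons. By the laxer flag 171 olfactory and 50 vomeronasal receptor genes were on, and by the stricter limit 31 olfactory ones. Chemokine receptors were on in 2 of 16, potassium channels in 23 of 97 and interleukins in 8 of 32, with the alarmin Il33 at 5.12, 5.13 and 4.95. The laxer flag gave 5, 42 and 14 for these 3 families, and the stricter limit gave 1 chemokine receptor. Of 792 long non-coding RNAs 31.2% were on, against 63.7% of 19662 protein-coding genes.

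Promoters of genes on and off differed in base composition, as the whole set of RefSeq promoters allowed to describe. Of the genes on, 10311 matched 13097 promoter windows of 300 bases, and of the genes off, 5186 matched 5868. The ratio of observed to expected CpG had a median of 0.73 in promoters of genes on (quartiles 0.45 and 0.90) and 0.27 in those of genes off (0.13 and 0.54), against 0.38 over all 32851 promoters. Over 4 equal groups of the genes on, from dimmest to brightest, the median was 0.54, 0.74, 0.77 and 0.78. The letters TATAAA, searched on both strands, were in 7.99% of promoters of genes on, 19.7% of those of genes off and 13.6% of all, while GGGCGG, the core of the GC box, was in 59.7%, 27.1% and 35.7%. CCAAT was in 38.1%, 38.0% and 37.4%. The letters CAAAGTCCA of the HNF4 site were in 0.405%, 0.545% and 0.475%. A gene with several starts counts once per start here, and which start was used is not known from the arrays.

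**Figure D5:**
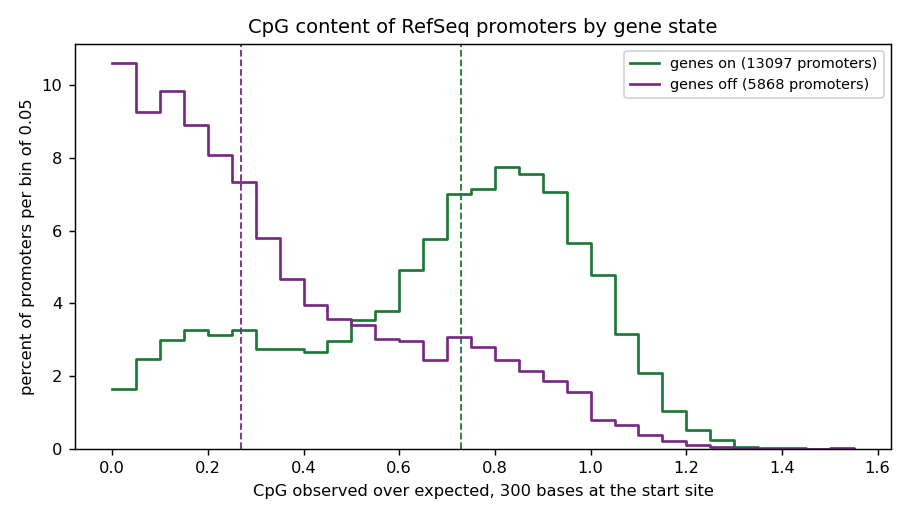
Percent of RefSeq promoters in bins of 0.05 by the ratio of observed to expected CpG over 300 bases, for genes on and off on the 3 NoRX arrays, with medians as dashed lines. Promoters of genes off pile up at low ratios (median 0.27) and those of genes on at high ratios (median 0.73), with wide overlap.

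The 3 arrays lay close together. Across named genes, which are not independent replicates, Pearson's r between arrays was 0.9903 to 0.991, and 0.9976 to 0.9979 across genes on. The median SD over the 3 arrays was 0.0591 among genes on, from 0.1336 in the dimmest 3218 of them to 0.0422 in the brightest 3218. An SD over 0.5 was seen for 149 genes on (1.16%), of which 138 were among the dimmest 3218. The 10 widest, clone, Riken and predicted names left out, were Plxna4, Dppa2, Rdh18-ps, Naalad2, Klrc1, Pou4f1, Rps6kl1, Ptprt, Mag and Fndc9. Their SDs ran from 1.37 to 1.63. Plxna4, for instance, read -3.98, -3.82 and -1.08, and Dppa2 read -1.44, -4.41 and -3.87. Plxna4 and Dppa2 had disagreeing probes, each on by 1 of its 2 probes and off by the other. In the 149 genes the array farthest from the median was replicate 1 in 46, replicate 2 in 45 and replicate 3 in 58.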

How the data were processed

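Of the 8 SurePrint G3 arrays (Agilent, 1 colour, Cy3), the 3 with RNA of BMEL cells in NoRX medium were used. The authors read the intensity of each spot with Feature Extraction software (Agilent, version 11.0.1.1), as headers and processing notes of the submitters state. Its processed signal is linear and has the background subtracted, per the file headers. The deposited flags for signals well above background are those of the same software. Intensities in the deposited series table did not differ from these (largest difference 0).

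Control spots and outlier spots (163 to 186 an array) were left out, spots of 1 probe were averaged, and log2 of the signal was taken minus the array's 75th percentile (592 to 645 intensity units). A probe counted as above background when at least 0.5 of its spots were flagged so. Of 55681 probes, 27235 were named through RefSeq accessions (GRCm38.p6) and 28446 were not matched. No gene coordinates of the array design are given, since it was built on another assembly. Promoter sequences are RefSeq's, with GRCm38.p6 coordinates counted from 1. Members were named from 56 gene lists of 1068 distinct genes, of which 1052 were measured, and from 41 symbol families, together with the 30 brightest and the 10 most variable genes. Genes with only clone, Riken or predicted names were not taken among the 30 and the 10. Not every member of a list is named. The rule and the lists were chosen with earlier results of these data known. On simulated arrays with known states, 99.59% of 18801 gene states were recovered. The simulated flags were set from those states, so this checks how flags were combined into gene states and not how accurate the flags are. The number of arrays, 3, limits the precision, and with 1 group no difference was tested.

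Alternatives covered the flag, the probe rule, the scaling, the background correction and each replicate left out. Python 3.11.15, pandas 2.3.3, numpy 2.4.6, matplotlib 3.10.9, R 4.3.3 and limma 3.58.1 were used. Some genes and the results that need them are not reported here.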

Additional observations from a re-analysis of the deposited data

Results flagged for a closer look

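Signal was seen in probes that no gene description here uses. Of the 28446 probes with no match to a RefSeq gene, 9505 (33.4%) were well above background on all 3 NoRX arrays, against 16876 of the matched probes (62.0%). Among the 308 negative control spots of each array, 9, 7 and 9 (2.92%, 2.27% and 2.92%) were well above background. What these 9505 probes read was not tested.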

How the results depend on the processing

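The number of genes on (12872) stayed within 1.5 times under every alternative run, from 11880 with every probe of a gene required to 14659 with the flag for a positive and significant signal. That flag left 3509 genes off in place of 6647, and the other alternatives gave 6645 to 7432. It turned 1078 genes from off to on, 51 of them list genes, and the limit of the negative control mean plus 3 SD turned 165 from on to off, 13 of them list genes. Genes of the lists on numbered 670 to 827, against 738. Taking the mean of a gene's probes kept 19 of the 30 brightest genes, and the other settings kept 26 to 30. The median SD of 0.0591 became 0.0934 with median centring and 0.0851 over all named genes, and lay between 0.0441 and 0.0531 with 1 replicate left out. Of counts by list, 10 moved by over 1.5 times and 494 did not, and of counts by family 21 moved and 348 did not.

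No paired analysis was possible because only 1 group of arrays was described and no difference between groups was fitted. Naming genes by the scanner files' own gene name column was not run, since the files used here have no such column. The normexp correction used median spot signals and was added after seeing the data, as was leaving out genes whose probes disagree. Signals near the background limit, where the dimmest genes on had a median SD of 0.1336, are the least certain, and a gene with 1 probe cannot be checked against another.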

Other observations

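Several gene families not described above were on in part. Among 17 Klf factors 11 were on (64.7%), near the 62.3% of all genes. Klf3 had relative log2 signals of 6.15, 6.17 and 6.17 on the 3 arrays and Klf6 of 5.89, 5.97 and 5.86. Of 19 Sox factors 7 were on. Sox4 (4.60, 4.61 and 4.70) and Sox11 (2.13, 2.08 and 2.13) were on by all their probes beside Sox9, and Sox5 (5.61, 5.67 and 5.61) was on by 1 of its 2 probes. Of 60 serpins 26 were on, among them Serpinh1 (4.91, 4.95 and 4.92), the collagen chaperone, while the Serpinb6 genes are close relatives that can share probe signal. Of 22 matrix metalloproteinases 6 were on, with Mmp15 at 3.51, 3.58 and 3.50.

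Chromosome Y held 21 named genes, of which 2 were on, Gm20736 (-2.49, -2.20 and -0.33) and Sly (-2.55, -2.37 and -2.49, by 1 of its 5 probes). Both were chosen for mention after their values were seen.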
